A study of Mus musculus with 12 samples.

Results

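The matrix metalloproteinases (MMPs), the ADAMTS proteases, the ADAMTS-like proteins and the tissue inhibitors of metalloproteinases (TIMPs) were followed across 4 sorted mouse bone stromal populations. Members were the protein-coding genes whose mouse symbol starts with Mmp, Adamts, Adamtsl or Timp and a number, and which reached at least 0.5 CPM (counts scaled to the library total) in at least 1 of 12 libraries. Of 50 genes with such a symbol, 46 were members, out of 18648 genes that reached this minimum in the whole data set. They comprised 18 of 22 Mmp genes, all 19 Adamts genes, all 5 Adamtsl genes and all 4 Timp genes. The genes below the minimum were Mmp1b, Mmp7, Mmp20 and Mmp21.

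MMPs and ADAMTS enzymes are secreted or membrane-bound zinc proteases that cut collagens, proteoglycans and other parts of the extracellular matrix, and they are made as inactive precursors. TIMPs bind the active site of MMPs and of some ADAMTS enzymes and block it, whereas ADAMTS-like proteins share the matrix-binding domains of ADAMTS proteins but carry no protease domain. In bone and marrow these genes are known for collagen turnover during bone remodelling, for processing of new collagen, and for cartilage breakdown.

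RNA came from 8- to 10-week-old wild-type male C57BL/6 mice at steady state, with 2000 sorted cells per library and 3 libraries per population, all sorted as CD45-Ter119-CD31- cells. Itga8+Alcam+Sca-1- cells are called Itga8+ MSCs (mesenchymal stem cells), Itga8-Alcam+Sca-1- cells are called Itga8- Alcam+ BLCs (bone-lining cells, labelled osteoblasts), and Alcam-Sca-1+ cells are called Sca-1+ MSCs. These 3 endosteal populations were released from bone fragments with type I collagenase, whereas CD51+CD140a+ MSCs came from flushed marrow digested with Accumax, so an effect of the digestion and a difference of CD51+CD140a+ MSCs from the others cannot be told apart. Whether each library came from its own animals was not stated, so p-values measure the spread between these libraries, which may be technical.

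Library totals ran from 17580677 to 31332475 gene counts, and 3 counts, taken as the floor, were worth 0.0819 to 0.180 CPM. Levels below are CPM on library sizes scaled by TMM (trimmed mean of M values), given in the order of replicates 1, 2 and 3, and errors are SD over 3 libraries, or SE for log2 fold changes. The labelled identities were checked against genes of the sort and marker genes. Itga8 measured 35.2 to 199 CPM in Itga8+ MSCs and at most 4.17 CPM in the other endosteal populations, but 53.1 to 82.9 CPM in CD51+CD140a+ MSCs, and Alcam measured 1.29 to 5.81 CPM in both Alcam+ populations and at most 0.221 CPM elsewhere. Bglap, the osteocalcin gene, measured 1175 to 6980.4 CPM in Itga8- Alcam+ BLCs and at most 14.95 CPM elsewhere. Ly6a, which encodes Sca-1, measured 611 to 658 CPM in Sca-1+ MSCs, and Lepr, a marker of perivascular stroma, measured 5725 to 6737 CPM in CD51+CD140a+ MSCs. Both Alcam+ populations also held cartilage transcripts, mostly Col2a1, and the summed level of 6 cartilage markers was 41974, 72643 and 9946 CPM in Itga8- Alcam+ BLCs and 70105, 10702 and 116106 CPM in Itga8+ MSCs. That sum was 526 to 1294 CPM in CD51+CD140a+ MSCs and 1314 to 1589 CPM in Sca-1+ MSCs. Replicate 2 of Itga8+ MSCs stood apart, with a Pearson correlation (log2 CPM, all genes, as a description) of 0.905 and 0.855 with the other libraries of its population, where the remaining pair reached 0.962. It had the lowest cartilage sum of its population and the highest sum of 7 neutrophil markers of all 12 libraries, 18447 CPM. The part of these cells in the values below was not tested, and in sorted bulk RNA fewer cells of a type and less RNA per cell cannot be told apart. Mitochondrial genes held 0.546% of the counts in replicate 2 of Itga8+ MSCs and 0.359% in replicate 3 of Itga8- Alcam+ BLCs. In the remaining libraries they held 0.0570% to 0.0996%, and the part of this share in the values below was not tested.

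Most members differed between the populations. In 1 edgeR quasi-likelihood fit of all 12 libraries, 36 of 46 members (78.3%) differed among the 4 populations at an adjusted p under 0.1, beside 47.5% of all genes tested. Of the 36 members that reached the minimum of 0.5 CPM in all 4 populations, 27 differed, and the share of all genes under that stricter minimum was not computed. Of the 30 members that reached a mean of 10 CPM in some population, the mean was highest in CD51+CD140a+ MSCs for 12 and in Sca-1+ MSCs for 11, but in Itga8+ MSCs for 4 and in Itga8- Alcam+ BLCs for 3. Every library of the top population lay above all 9 other libraries for 9, 8, 0 and 1 of these members, respectively. These rankings were not made over all genes, so they do not set the members apart from other genes. Replicates were also less alike in the Alcam+ populations (Pearson correlation 0.855 to 0.962) than in the other populations (0.980 to 0.988). Among the Timp genes, Timp2 and Timp3 had the highest levels in Sca-1+ MSCs. Among the Adamts genes, Adamts1 and Adamts2 had the highest levels in CD51+CD140a+ MSCs, as the heat map of all members shows.

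**Figure D1:**
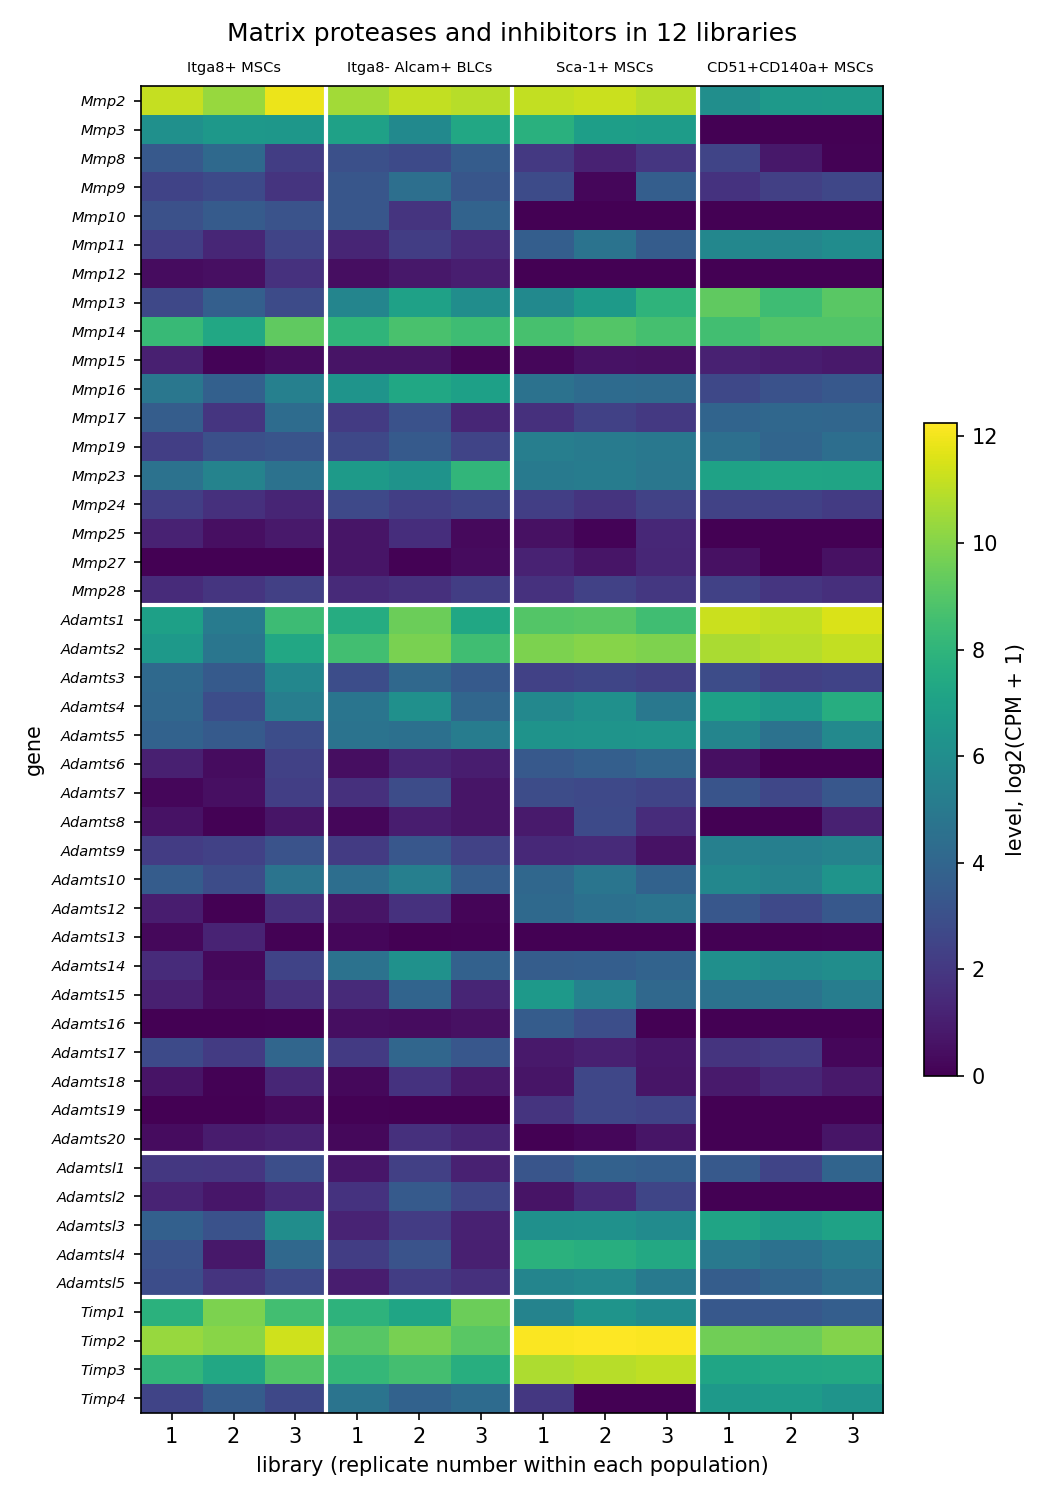
Level of each of the 46 members, as log2(CPM + 1), in 12 libraries grouped by population, with rows grouped into Mmp, Adamts, Adamtsl and Timp genes. Mmp2 is bright in the first 9 columns and dimmer in the last 3, Mmp3 is dark in the last 3 columns, and Timp2 and Timp3 are brightest in the columns of Sca-1+ MSCs.

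A pairwise call required an adjusted p under 0.1 and a fold change above 2. Against Sca-1+ MSCs, Itga8+ MSCs had 8 members called higher and 16 lower (17.4% and 34.8%), where 12.9% and 8.89% of all genes were called higher and lower. Of the member calls, 3 higher and 2 lower calls had every library of 1 population at or under 3 counts. The median log2 fold change was -1.13 over the members and 0.16 over all genes. Against CD51+CD140a+ MSCs, Itga8+ MSCs had 14 members higher and 18 lower, beside 21.2% and 14.3% of all genes, with medians of -0.53 and 0.18. At the floor on 1 side were 7 of the higher and 1 of the lower calls, and 2 of them have bounds below the 2-fold rule, Adamts19 (4 reads in Itga8+ replicate 3 and none in the other libraries of that population, lost in 10 of 12 fits without 1 library, Itga8+ replicates 1 and 2 being the exceptions) and Mmp27 (at least 1.76-fold lower, lost without Itga8+ replicates 1 or 2 or CD51+CD140a+ replicates 1 or 3). The members called made up 30.4% and 39.1% of the members in this comparison.

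Itga8- Alcam+ BLCs had 8 members higher and 14 lower than Sca-1+ MSCs, beside 14.5% and 11.9% of all genes, with medians of -0.35 over the members and 0.12 over all genes. They had 10 higher and 15 lower than CD51+CD140a+ MSCs, beside 20.4% and 14.9%, with medians of -0.089 (or -0.11 with members at the floor set to their bound) and 0.091. Sca-1+ MSCs had 13 higher and 9 lower than CD51+CD140a+ MSCs, beside 11.2% and 9.3%, with medians of 0.28 and -0.0025. The comparisons share populations and are not independent of each other. 10 members reached the minimum of 0.5 CPM in fewer than 4 populations, so their selection favoured a difference (Mmp3, Mmp10, Mmp12, Mmp15, Mmp25, Mmp27, Adamts13, Adamts16, Adamts19 and Adamtsl2). Over the remaining 36 members, Itga8+ MSCs had 5 higher and 13 lower than Sca-1+ MSCs and 7 higher and 17 lower than CD51+CD140a+ MSCs. Itga8- Alcam+ BLCs had 6 higher and 12 lower than Sca-1+ MSCs, with 4 and 15 relative to CD51+CD140a+ MSCs, and the counts for Sca-1+ against CD51+CD140a+ MSCs were 8 and 9. Shares of all genes under that stricter minimum were not computed, so the shares above are not a like background for these counts. Single libraries moved some counts by over 1.5 times. Without Sca-1+ replicate 3 the 8 members higher in Itga8+ than in Sca-1+ MSCs became 5. Without CD51+CD140a+ replicate 2 the 14 higher in Itga8+ than in CD51+CD140a+ MSCs became 9. The 9 lower in Sca-1+ than in CD51+CD140a+ MSCs became 3 without Sca-1+ replicate 1 and 4 without replicate 3.

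The gelatinase gene Mmp2 (ENSMUSG00000031740, chromosome 8, 92827291 to 92853420), whose enzyme cuts denatured collagen and type IV collagen, separated the endosteal populations from the marrow population. Coordinates here and below are those of GRCm38. Mmp2 measured 65.9, 93.8 and 100.1 CPM in CD51+CD140a+ MSCs and 2238, 2498 and 1931 CPM in Sca-1+ MSCs. Mmp2 was at 1489, 2266 and 1961 CPM in Itga8- Alcam+ BLCs and 2327, 1304 and 3857 CPM in Itga8+ MSCs. No library of CD51+CD140a+ MSCs came near those of the other 3 populations, whose ranges overlapped. The mean was 2496 ± 1285 CPM, 1905 ± 391 CPM and 2222 ± 284 CPM in the endosteal populations and 86.6 ± 18.2 CPM in CD51+CD140a+ MSCs. Against CD51+CD140a+ MSCs, Itga8+ MSCs had a log2 fold change of 4.85 ± 0.43 SE, adjusted p = 1.0e-05. In the same contrast, Itga8- Alcam+ BLCs had a log2 fold change of 4.46 ± 0.42 SE, adjusted p = 1.5e-05, and Sca-1+ MSCs had a log2 fold change of 4.68 ± 0.42 SE, adjusted p = 1.2e-05. Per length of transcript (TPM, counts scaled by gene length and library), Mmp2 made up 82.5% ± 5.51, 69.7% ± 5.46 and 72.97% ± 3.84 of the summed Mmp level in these populations and 6.83% ± 1.77 in CD51+CD140a+ MSCs.

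Mmp14 (ENSMUSG00000000957, chromosome 14, 54431612 to 54445364) encodes the membrane-type MMP that cuts fibrillar collagen and, together with TIMP-2, activates pro-MMP-2 at the cell surface. It did not pass the test among the 4 populations (adjusted p = 0.76). Its level was 373, 486 and 482 CPM in CD51+CD140a+ MSCs and 409, 493 and 402 CPM in Sca-1+ MSCs. Mmp14 was at 257, 422 and 347 CPM in Itga8- Alcam+ BLCs and 307, 162 and 605 CPM in Itga8+ MSCs. All 4 groups of libraries overlapped, and Itga8+ MSCs held both the lowest and the highest library. The second gelatinase gene, Mmp9, did not pass either (adjusted p = 0.29). Its mean was 3.82 ± 1.32 CPM in CD51+CD140a+ MSCs, 5.98 ± 5.83 CPM in Sca-1+ MSCs, 12.999 ± 7.36 CPM in Itga8- Alcam+ BLCs and 4.25 ± 1.55 CPM in Itga8+ MSCs. Mmp14 and Mmp9 were the only members of at least 10 CPM that were called in no pairwise comparison.

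The collagenase gene Mmp13, the main fibrillar collagenase of mouse bone and of hypertrophic cartilage, was highest where Mmp2 was lowest. It measured 609.7, 352 and 551 CPM in CD51+CD140a+ MSCs and 55.1, 102 and 251 CPM in Sca-1+ MSCs. Mmp13 was at 47.05, 128 and 62.3 CPM in Itga8- Alcam+ BLCs and 5.24, 11.9 and 6.01 CPM in Itga8+ MSCs. All libraries of Itga8+ MSCs lay below all others and all libraries of CD51+CD140a+ MSCs above all others, while Itga8- Alcam+ BLCs and Sca-1+ MSCs overlapped. Itga8+ MSCs were lower than Itga8- Alcam+ BLCs (log2 fold change -3.36 ± 0.60 SE, adjusted p = 0.011). They were also lower than Sca-1+ MSCs (log2 fold change -4.14 ± 0.63 SE, adjusted p = 0.0012) and than CD51+CD140a+ MSCs (log2 fold change -6.03 ± 0.68 SE, adjusted p = 6.1e-05). For Itga8- Alcam+ BLCs against CD51+CD140a+ MSCs there was a log2 fold change of -2.67 ± 0.58 SE, adjusted p = 0.005. Mmp13 made up 48.96% ± 8.84 of the summed Mmp TPM in CD51+CD140a+ MSCs, more than any other Mmp gene there, and 0.430% ± 0.391 in Itga8+ MSCs. The summed level of 6 osteoblast markers moved with it in part. That sum was 7183 to 16308 CPM in CD51+CD140a+ MSCs, 453 to 712 CPM in Sca-1+ MSCs, 7684 to 20058 CPM in Itga8- Alcam+ BLCs and 461 to 994 CPM in Itga8+ MSCs. Ibsp, an early mineral-binding marker, made up most of the sum in CD51+CD140a+ MSCs, where Bglap and Dmp1, a late marker, stayed under 10 CPM. The part of osteoblast-lineage cells in the Mmp13 values was not tested.

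**Figure D2:**
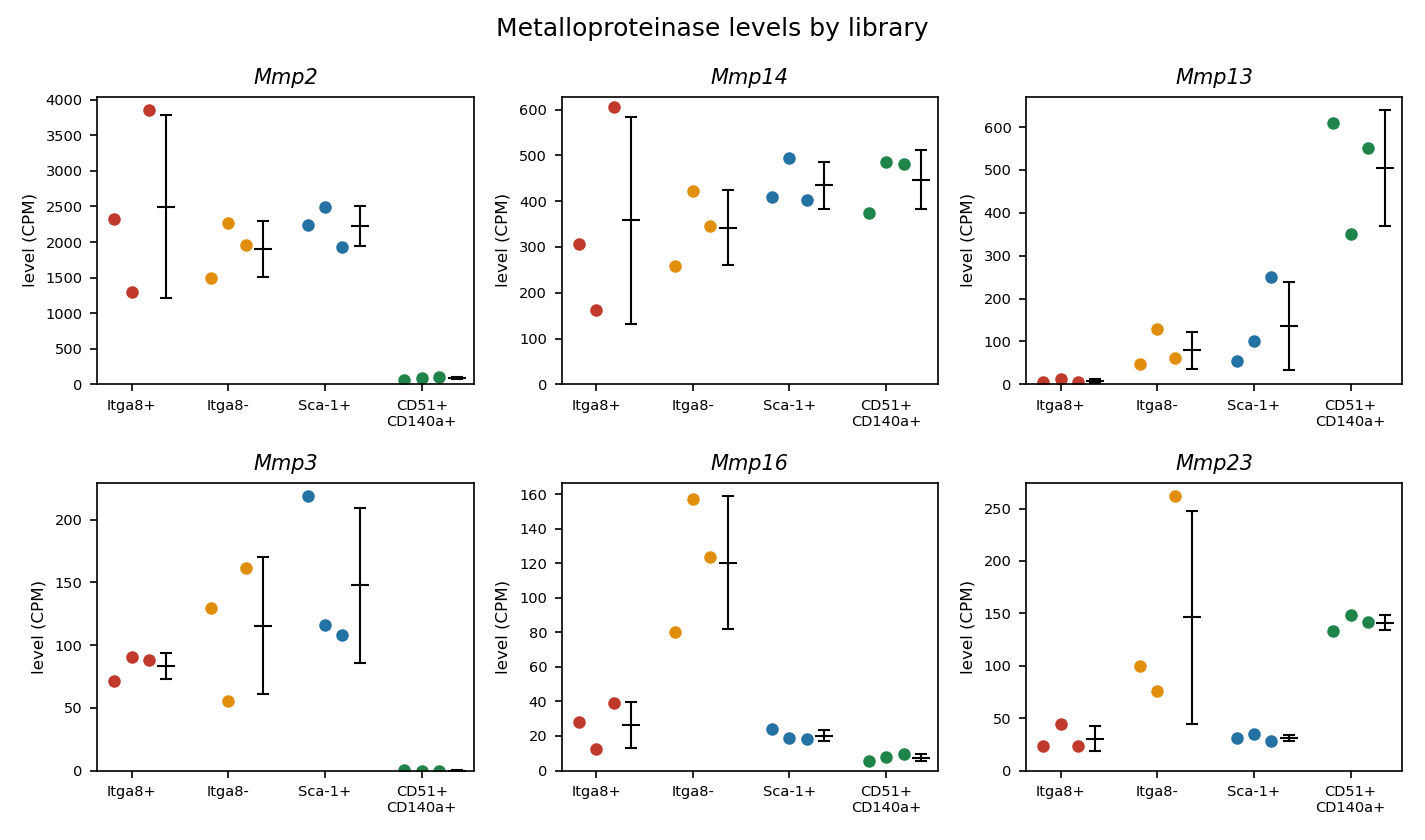
Level in CPM (vertical axis, from 0) of 6 Mmp genes in the 4 populations (horizontal axis). Coloured points are single libraries, and the black mark with its bar is the mean ± SD of 3 libraries. Mmp2 and Mmp3 are lowest in CD51+CD140a+ MSCs, Mmp13 is highest there, Mmp16 is highest in Itga8- Alcam+ BLCs, and the 4 groups overlap for Mmp14.

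Mmp13 lies in a cluster of 9 protein-coding Mmp genes within 427 kb of chromosome 9 (GRCm38, 7272514 to 7699585), of which Mmp13, Mmp12, Mmp3, Mmp10, Mmp8 and Mmp27 were members. The stretch of 150 bases before the gene start is shown for the cluster genes in which the 250 bases before the start hold the AP-1 motif, TGAGTCA or its reverse complement TGACTCA, in capitals here. The AP-1 element is the binding motif of Fos and Jun dimers and is a textbook feature of MMP promoters. The sequences are those of RefSeq (GRCm38.p6), 5′ to 3′ on the gene's strand, which is the + strand for each. For Mmp12, which has more than 1 annotated start, the window of the downstream start is shown, and the window of the upstream start holds no AP-1 match.
Mmp13 (chr9:7272364-7272513): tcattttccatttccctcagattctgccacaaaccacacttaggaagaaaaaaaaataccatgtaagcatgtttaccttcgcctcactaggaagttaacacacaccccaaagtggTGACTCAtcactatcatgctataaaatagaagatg
Mmp12 (chr9:7347224-7347373): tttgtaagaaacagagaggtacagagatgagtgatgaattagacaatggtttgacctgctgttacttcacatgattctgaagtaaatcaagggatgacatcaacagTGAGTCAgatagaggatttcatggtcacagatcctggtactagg
Mmp3 (chr9:7445672-7445821): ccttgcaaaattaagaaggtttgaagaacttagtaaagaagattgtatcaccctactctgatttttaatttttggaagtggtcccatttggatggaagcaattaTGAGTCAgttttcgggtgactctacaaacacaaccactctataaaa
Mmp10 (chr9:7502192-7502341): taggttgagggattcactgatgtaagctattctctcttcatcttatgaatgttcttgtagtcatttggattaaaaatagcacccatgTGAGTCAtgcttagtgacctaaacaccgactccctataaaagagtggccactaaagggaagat

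Among 31 members with a RefSeq window, Mmp3, Mmp10, Mmp12 and Mmp13 were the ones with an AP-1 match on either strand in 250 bases of any annotated start, a motif held by 5.16% of all 27025 genes with such a window. The match began 35, 44, 46 and 63 bases before the start in Mmp13, Mmp12, Mmp3 and Mmp10. The TATA motif TATAAA, or TTTATA, was found in 5 of the 31 members (Adamts1, Adamtsl2, Mmp10, Mmp13 and Mmp3) and in 14.3% of all genes with a window. The GC box GGGCGG, or CCGCCC, was found in 20 of the 31 members and in 35.4% of all genes with a window, and these included Mmp14, Adamts1, Adamts2, Timp1, Timp2 and Timp3 but no gene of the chromosome 9 cluster. The motif CCAAT, or ATTGG, was found in 6 members and 37.5% of all genes with a window. No motif contains another. These matches describe the letters in the windows and nothing bound there. The AP-1 subunit transcripts were present in every library. Fos measured 4926 to 6234 CPM in CD51+CD140a+ MSCs, 3324 to 3587 CPM in Sca-1+ MSCs, 2118 to 5205 CPM in Itga8- Alcam+ BLCs and 2381 to 6074 CPM in Itga8+ MSCs. Jun measured 2369.9 to 4022 CPM, 518 to 892 CPM, 847 to 1359 CPM and 925 to 1578 CPM in that order.

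The stromelysin gene Mmp3, whose enzyme cuts proteoglycans and fibronectin and activates other pro-MMPs, was close to undetected in the marrow population. It measured 0.0273, 0 and 0 CPM in CD51+CD140a+ MSCs and 218, 116 and 108 CPM in Sca-1+ MSCs. Mmp3 was at 129.6, 55.6 and 161 CPM in Itga8- Alcam+ BLCs and 71.1, 90.4 and 87.9 CPM in Itga8+ MSCs. A single read was counted on Mmp3 over the 3 libraries of CD51+CD140a+ MSCs, and the lowest endosteal library held 55.6 CPM. Relative to that read the mean of Sca-1+ MSCs was higher by a ratio of 15127 (95% exact Poisson interval 2715 to 597475). For Itga8- Alcam+ BLCs the ratio was 11847 (95% exact Poisson interval 2126 to 467920), and for Itga8+ MSCs it was 8524 (95% exact Poisson interval 1529.8 to 336662). The intervals cover the counting error of the low side only. Mmp3, Mmp10 and Mmp12 reached the minimum of the rule only in the populations where they were high, so these differences are given without a test. The neighbouring stromelysin gene Mmp10, singled out with Mmp12 after their values were seen, was detected in both Alcam+ populations and in no other library. Its level was 8.81, 2.64 and 13.7 CPM in Itga8- Alcam+ BLCs and 7.12, 10.6 and 7.74 CPM in Itga8+ MSCs, with no read in any other library. Against the floor of 3 counts per library, the Mmp10 mean of Itga8+ MSCs was at least 51.1-fold higher than that of Sca-1+ MSCs. Its excess over CD51+CD140a+ MSCs was at least 87.8-fold.

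Mmp12, which encodes macrophage elastase, had the same distribution at a lower level, with 0.348, 0.741 and 1.02 CPM in Itga8- Alcam+ BLCs, 0.346, 0.415 and 2.31 CPM in Itga8+ MSCs and no read in the other populations. Its mean in Itga8+ MSCs was at least 6.17-fold higher than that of Sca-1+ MSCs, a bound that fell to 2.29-fold without Itga8+ replicate 3. The summed level of 6 macrophage and osteoclast markers was 162 to 173 CPM in CD51+CD140a+ MSCs, 309 to 345 CPM in Sca-1+ MSCs, 331 to 854 CPM in Itga8- Alcam+ BLCs and 236 to 687 CPM in Itga8+ MSCs. Its part in the Mmp12 values was not tested. Mmp3 and Mmp10 are close paralogues, but 91.6% and 91.6% of their 50-base words occur in no other gene. Mmp8, the neutrophil collagenase gene at the same locus, measured 4.73, 0.716 and 0.0644 CPM in CD51+CD140a+ MSCs and 3.097, 1.27 and 2.81 CPM in Sca-1+ MSCs. Mmp8 was at 7.07, 5.74 and 10.97 CPM in Itga8- Alcam+ BLCs and 9.89, 17.2 and 3.697 CPM in Itga8+ MSCs. Its highest library was replicate 2 of Itga8+ MSCs, which also had the highest sum of neutrophil markers, and its test among the 4 populations did not pass (adjusted p = 0.13). The pairwise call of Mmp8, log2 fold change 2.47 ± 1.00 SE, adjusted p = 0.082 for Itga8+ against CD51+CD140a+ MSCs, was lost without Itga8+ replicates 1 or 2, Itga8- replicate 1, Sca-1+ replicates 1 or 3, or CD51+CD140a+ replicates 2 or 3 (range 1.91 to 4.68). The neutrophil sums were 1091 to 1736 CPM in CD51+CD140a+ MSCs, 1000.01 to 2292 CPM in Sca-1+ MSCs, 5722 to 8488 CPM in Itga8- Alcam+ BLCs and 2840.1 to 18447 CPM in Itga8+ MSCs. All 7 markers were detected in every library, although the sort removed CD45+ cells. Mmp27 stayed at or under 1.45 CPM and had no read in Itga8+ MSCs.

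Among the membrane-type and remaining MMPs, Mmp16 and Mmp23 were higher on the Itga8- side of the Alcam+ gate. Mmp16, a membrane-type MMP gene, measured 5.24, 7.62 and 9.404 CPM in CD51+CD140a+ MSCs and 23.9, 18.8 and 18.1 CPM in Sca-1+ MSCs. Mmp16 was at 80.2, 157 and 124 CPM in Itga8- Alcam+ BLCs and 27.99, 12.6 and 38.9 CPM in Itga8+ MSCs. Every library of Itga8- Alcam+ BLCs was above all others and every library of CD51+CD140a+ MSCs below all others. Itga8+ MSCs were lower than Itga8- Alcam+ BLCs (log2 fold change -2.19 ± 0.42 SE, adjusted p = 0.016) and higher than CD51+CD140a+ MSCs (log2 fold change 1.83 ± 0.42 SE, adjusted p = 0.0068). Itga8- Alcam+ BLCs were higher than Sca-1+ MSCs (log2 fold change 2.57 ± 0.43 SE, adjusted p = 0.0016) and than CD51+CD140a+ MSCs (log2 fold change 4.02 ± 0.46 SE, adjusted p = 6.4e-05).

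Mmp23, an unusual MMP that is anchored in the membrane by its N-terminus, measured 134, 149 and 141 CPM in CD51+CD140a+ MSCs and 31.03, 34.4 and 28.2 CPM in Sca-1+ MSCs. Mmp23 was at 99.8, 76.3 and 262 CPM in Itga8- Alcam+ BLCs and 23.3, 44.2 and 23.4 CPM in Itga8+ MSCs. Itga8- Alcam+ BLCs and CD51+CD140a+ MSCs overlapped with each other and lay above Itga8+ and Sca-1+ MSCs, which also overlapped. The difference was a log2 fold change of -2.27 ± 0.44 SE, adjusted p = 0.018 for Itga8+ MSCs against Itga8- Alcam+ BLCs. Against CD51+CD140a+ MSCs it was a log2 fold change of -2.22 ± 0.44 SE, adjusted p = 0.0031 for Itga8+ MSCs, and log2 fold change -2.18 ± 0.44 SE, adjusted p = 0.0043 for Sca-1+ MSCs. Mmp11, which encodes stromelysin-3, measured 53.1 ± 6.93 CPM in CD51+CD140a+ MSCs, 15.6 ± 7.64 CPM in Sca-1+ MSCs, 2.34 ± 1.18 CPM in Itga8- Alcam+ BLCs and 3.31 ± 1.63 CPM in Itga8+ MSCs. Both Alcam+ populations were lower than Sca-1+ MSCs (log2 fold change -2.24 ± 0.50 SE, adjusted p = 0.011 for Itga8+ MSCs and log2 fold change -2.73 ± 0.51 SE, adjusted p = 0.0032 for Itga8- Alcam+ BLCs). They were lower than CD51+CD140a+ MSCs as well (log2 fold change -4.000 ± 0.54 SE, adjusted p = 2.0e-04 and log2 fold change -4.49 ± 0.55 SE, adjusted p = 1.0e-04). Mmp19 was highest in Sca-1+ MSCs, at 37.3, 33.1 and 29.1 CPM against 3.91, 6.96 and 8.14 CPM in Itga8+ MSCs (log2 fold change -2.39 ± 0.39 SE, adjusted p = 0.0018). However, 28.3% of its exon bases overlap antisense genes, and the strand setting of the counting was not given in the sources used here. Mmp17, a glycolipid-anchored MMP gene, measured 15.2 ± 0.763 CPM in CD51+CD140a+ MSCs, 3.14 ± 0.982 CPM in Sca-1+ MSCs, 4.099 ± 3.02 CPM in Itga8- Alcam+ BLCs and 11.1 ± 8.299 CPM in Itga8+ MSCs. It was lower in Sca-1+ than in CD51+CD140a+ MSCs (log2 fold change -2.27 ± 0.67 SE, adjusted p = 0.036), a call lost without Sca-1+ replicate 1 (-2.07) or replicate 3 (-2.24).

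Of the 19 ADAMTS proteases, Itga8+ MSCs had 8 lower and 4 higher than Sca-1+ MSCs, and 10 lower and 5 higher than CD51+CD140a+ MSCs. The lower side of the first comparison held Adamts16 and Adamts19. Both reached the minimum of the rule only in Sca-1+ MSCs, so their selection favoured these calls. The higher side of the second comparison held Adamts19, described above, and that of both held Adamts13, whose bounds of 3.12-fold and 5.36-fold became 0.770-fold and 1.32-fold without Itga8+ replicate 2. Of all genes, 8.89% and 12.9% were lower and higher in the first comparison and 14.3% and 21.2% in the second. Adamts16 and Adamts19 were also among the lower calls of Itga8- Alcam+ BLCs against Sca-1+ MSCs. Adamts16, at least 3.98-fold higher, was among their higher calls against CD51+CD140a+ MSCs. With these, Itga8- Alcam+ BLCs had 6 lower and 2 higher than Sca-1+ MSCs, and 7 lower and 2 higher than CD51+CD140a+ MSCs, where 11.9% and 14.5%, and 14.9% and 20.4%, of all genes were lower and higher. Adamts1 (ENSMUSG00000022893, chromosome 16, 85793827 to 85803113), which encodes an aggrecan- and versican-cleaving enzyme, was the most abundant of them per length in CD51+CD140a+ MSCs, with 64.1% ± 2.18 of the summed Adamts TPM. It measured 2443, 2128 and 3057 CPM in CD51+CD140a+ MSCs and 498, 540.2 and 356 CPM in Sca-1+ MSCs. Adamts1 was at 189.98, 722 and 158 CPM in Itga8- Alcam+ BLCs and 125, 32.9 and 334 CPM in Itga8+ MSCs. The lowest library of CD51+CD140a+ MSCs was above the highest of any other population. The difference from CD51+CD140a+ MSCs was a log2 fold change of -3.96 ± 0.79 SE, adjusted p = 0.0031 for Itga8+ MSCs and log2 fold change -2.83 ± 0.75 SE, adjusted p = 0.014 for Itga8- Alcam+ BLCs. Adamts1 is also known as an early-response gene. The summed level of 7 immediate early genes was 16067 to 21969 CPM in CD51+CD140a+ MSCs, 8507 to 10146 CPM in Sca-1+ MSCs, 8085 to 11756 CPM in Itga8- Alcam+ BLCs and 8499 to 10108 CPM in Itga8+ MSCs. Its part in the Adamts1 difference was not tested.

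Adamts4 and Adamts5 encode the principal aggrecanases of cartilage. Adamts4 measured 124, 91.04 and 195 CPM in CD51+CD140a+ MSCs and 51.4, 70.4 and 28.7 CPM in Sca-1+ MSCs. Adamts4 was at 25.8, 70.6 and 15.7 CPM in Itga8- Alcam+ BLCs and 15.9, 6.54 and 36.3 CPM in Itga8+ MSCs. Itga8+ MSCs were lower than CD51+CD140a+ MSCs (log2 fold change -2.803 ± 0.69 SE, adjusted p = 0.0099). Adamts5 measured 47.1, 23.3 and 54.04 CPM in CD51+CD140a+ MSCs and 77.5, 78.97 and 81.8 CPM in Sca-1+ MSCs. Adamts5 was at 24.6, 21.8 and 34.04 CPM in Itga8- Alcam+ BLCs and 13.4, 10.2 and 6.53 CPM in Itga8+ MSCs. All libraries of Sca-1+ MSCs were above all others and all libraries of Itga8+ MSCs below all others for Adamts5. The Adamts5 difference was a log2 fold change of -2.98 ± 0.39 SE, adjusted p = 4.8e-04 for Itga8+ against Sca-1+ MSCs and log2 fold change -2.05 ± 0.37 SE, adjusted p = 0.0017 for Itga8+ against CD51+CD140a+ MSCs. It was a log2 fold change of -1.57 ± 0.37 SE, adjusted p = 0.011 for Itga8- Alcam+ BLCs against Sca-1+ MSCs. The low Adamts5 levels of Itga8+ MSCs stood beside the high cartilage marker sums given above. Acan, the gene of the aggrecanase substrate aggrecan, measured 23.8 to 29.2 CPM in CD51+CD140a+ MSCs, 118 to 168 CPM in Sca-1+ MSCs, 300.3 to 1522 CPM in Itga8- Alcam+ BLCs and 236 to 1551 CPM in Itga8+ MSCs. Adamts9, another proteoglycan-cleaving family member, measured 39.7, 37.5 and 43.7 CPM in CD51+CD140a+ MSCs and 1.66, 1.78 and 0.515 CPM in Sca-1+ MSCs. Adamts9 was at 3.39, 9.13 and 4.32 CPM in Itga8- Alcam+ BLCs and 3.46, 4.15 and 7.68 CPM in Itga8+ MSCs. The libraries of CD51+CD140a+ MSCs stood clear of the rest, with a log2 fold change of -2.98 ± 0.53 SE, adjusted p = 0.0014 for Itga8+ MSCs against them. For Itga8- Alcam+ BLCs it was a log2 fold change of -2.84 ± 0.52 SE, adjusted p = 0.0017, and for Sca-1+ MSCs log2 fold change -4.93 ± 0.58 SE, adjusted p = 9.3e-05. Of its exon bases, 11.99% overlap antisense genes. Adamts15 was uneven in Sca-1+ MSCs, at 97.96, 42.1 and 16.5 CPM, overlapping CD51+CD140a+ MSCs at 23.5, 24.4 and 36.01 CPM and above 1.09, 0.312 and 2.19 CPM in Itga8+ MSCs (log2 fold change -5.45 ± 1.07 SE, adjusted p = 0.0056).

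**Figure D3:**
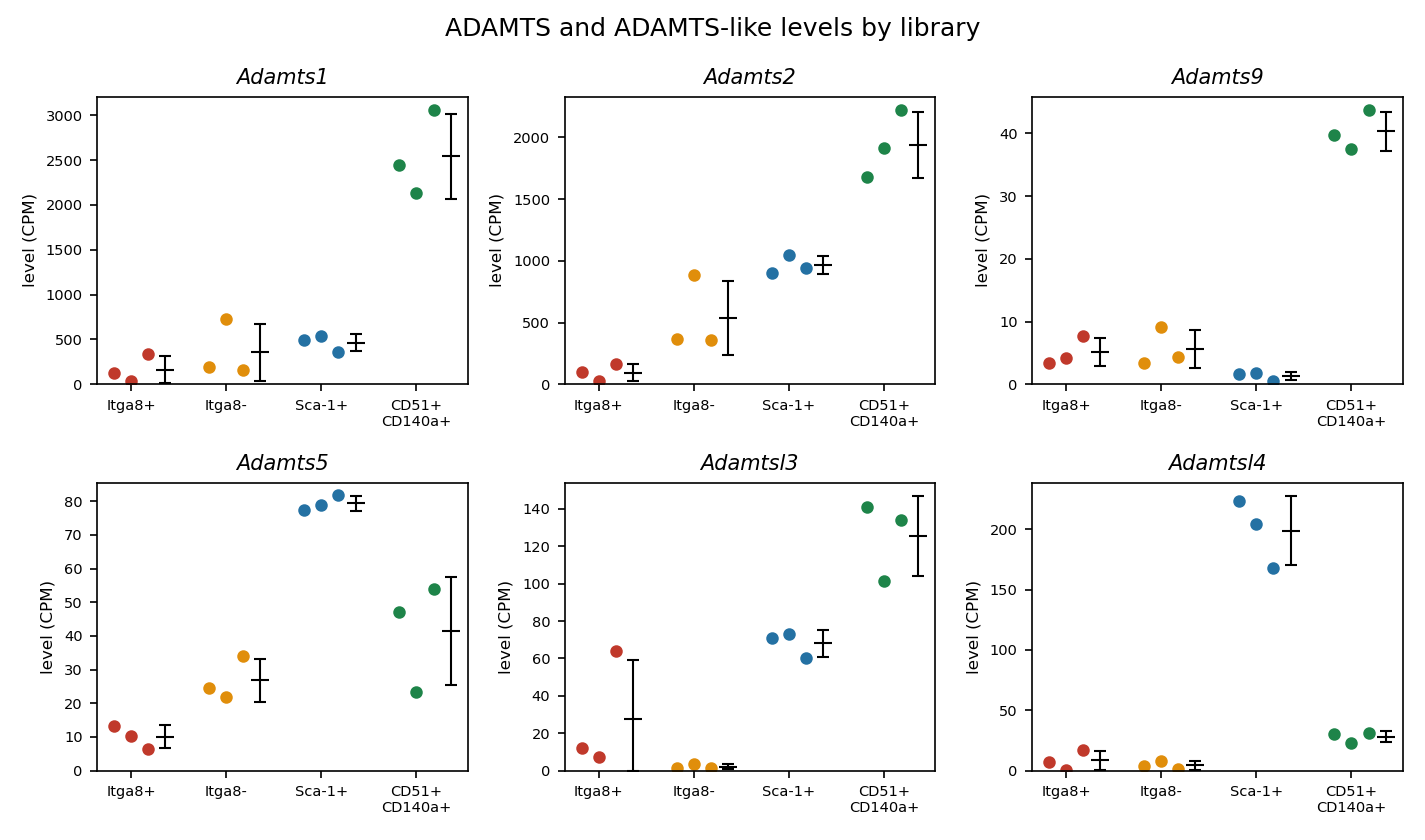
Level in CPM (vertical axis, from 0) of 4 Adamts and 2 Adamtsl genes in the 4 populations (horizontal axis). Coloured points are single libraries, and the black mark with its bar is the mean ± SD of 3 libraries. Adamts1, Adamts2 and Adamts9 are highest in CD51+CD140a+ MSCs, Adamts5 and Adamtsl4 are highest in Sca-1+ MSCs, and Adamtsl3 is lowest in Itga8- Alcam+ BLCs.

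The procollagen N-propeptidases, which remove the amino-terminal propeptide of fibrillar procollagens, did not move together. Adamts2 (ENSMUSG00000036545, chromosome 11, 50602084 to 50807573) measured 1681, 1911 and 2220.5 CPM in CD51+CD140a+ MSCs and 902, 1044 and 942 CPM in Sca-1+ MSCs. Adamts2 was at 369, 883 and 358 CPM in Itga8- Alcam+ BLCs and 97.4, 26.8 and 160.1 CPM in Itga8+ MSCs. Its libraries fell into separate ranges that ran from Itga8+ MSCs through Itga8- Alcam+ BLCs and Sca-1+ MSCs to CD51+CD140a+ MSCs. Itga8+ MSCs were lower than Sca-1+ MSCs (log2 fold change -3.34 ± 0.57 SE, adjusted p = 0.0025) and than CD51+CD140a+ MSCs (log2 fold change -4.35 ± 0.60 SE, adjusted p = 2.4e-04). Itga8- Alcam+ BLCs were lower for Adamts2 than CD51+CD140a+ MSCs (log2 fold change -1.85 ± 0.54 SE, adjusted p = 0.022). Adamts14 measured 67.7, 54.9 and 62.8 CPM in CD51+CD140a+ MSCs and 11.1, 11.8 and 13.7 CPM in Sca-1+ MSCs. Adamts14 was at 23.9, 73.1 and 12.8 CPM in Itga8- Alcam+ BLCs and 1.88, 0.208 and 4.45 CPM in Itga8+ MSCs. Itga8+ MSCs were again lower than CD51+CD140a+ MSCs (log2 fold change -4.83 ± 0.88 SE, adjusted p = 0.0017). Adamts3, which processes type II procollagen and pro-VEGF-C, ran the other way. It measured 6.17, 3.93 and 4.44 CPM in CD51+CD140a+ MSCs and 4.09, 4.83 and 4.08 CPM in Sca-1+ MSCs. Adamts3 was at 6.32, 16.4 and 10.01 CPM in Itga8- Alcam+ BLCs and 17.5, 10.2 and 50.7 CPM in Itga8+ MSCs. For Adamts3, Itga8+ MSCs were above Sca-1+ MSCs (log2 fold change 2.59 ± 0.56 SE, adjusted p = 0.0097) and above CD51+CD140a+ MSCs (log2 fold change 2.43 ± 0.56 SE, adjusted p = 0.007). Without Itga8+ replicate 3 these log2 fold changes were 1.64 and 1.52, and both calls held. Their lowest library lay within the range of Itga8- Alcam+ BLCs. The cartilage sum was also lowest in the lowest Itga8+ library for Adamts3, and its part in the Adamts3 values was not tested.

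Of the other ADAMTS genes, Adamts12, whose product cleaves cartilage oligomeric matrix protein, measured 9.18, 5.62 and 9.53 CPM in CD51+CD140a+ MSCs and 16.98, 22.3 and 25.6 CPM in Sca-1+ MSCs, against at most 2.32 CPM in any Alcam+ library. Adamts12 was lower than in Sca-1+ MSCs in both Itga8+ MSCs (log2 fold change -4.38 ± 1.08 SE, adjusted p = 0.018) and Itga8- Alcam+ BLCs (log2 fold change -4.39 ± 1.07 SE, adjusted p = 0.014). Adamts6 measured 0.437, 0.0287 and 0 CPM in CD51+CD140a+ MSCs and 9.62, 11.95 and 15.5 CPM in Sca-1+ MSCs (log2 fold change 6.23 ± 1.23 SE, adjusted p = 0.0035 for Sca-1+ against CD51+CD140a+ MSCs). Replicate 1 held 16 of the Adamts6 reads of CD51+CD140a+ MSCs, and without it that population was at the floor and at least 128-fold lower. Itga8- Alcam+ BLCs were also lower than Sca-1+ MSCs (log2 fold change -3.77 ± 1.08 SE, adjusted p = 0.028). Adamts10, linked to fibrillin microfibrils, was highest in CD51+CD140a+ MSCs at 57.96 ± 19.7 CPM and was lower in Itga8+ MSCs (log2 fold change -2.04 ± 0.57 SE, adjusted p = 0.019). Adamts16 and Adamts19, chosen after their values were seen, were found mainly in Sca-1+ MSCs, at 10.8, 6.61 and 0 CPM and 2.54, 5.19 and 4.497 CPM. Neither had a read in any library of CD51+CD140a+ MSCs, which set their means at least 60.02-fold and 42.2-fold higher in Sca-1+ MSCs, given without a test because both reached the minimum of the rule only there. Replicate 3 of Sca-1+ MSCs had no read for Adamts16 either, so both populations overlapped for that gene. The Adamts16 bound was 34.2-fold without Sca-1+ replicate 1 and 90.03-fold without replicate 3.

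Of the 5 ADAMTS-like genes, 4 had their lowest mean in Itga8- Alcam+ BLCs, which were lower than Sca-1+ MSCs and than CD51+CD140a+ MSCs for the same 4, all but Adamtsl2, where 11.9% and 14.9% of all genes were lower. Adamtsl4, which binds fibrillin microfibrils, measured 30.2, 22.7 and 31.2 CPM in CD51+CD140a+ MSCs and 224, 205 and 168 CPM in Sca-1+ MSCs. Adamtsl4 was at 3.73, 7.74 and 1.08 CPM in Itga8- Alcam+ BLCs and 7.47, 0.727 and 16.9 CPM in Itga8+ MSCs. Every library of Sca-1+ MSCs was above all others, and the difference from them was a log2 fold change of -4.57 ± 0.91 SE, adjusted p = 0.0062 for Itga8+ MSCs and log2 fold change -5.56 ± 0.96 SE, adjusted p = 0.0019 for Itga8- Alcam+ BLCs. Adamtsl5 had the same order of means, with 11.03, 14.8 and 21.1 CPM in CD51+CD140a+ MSCs and 47.3, 53.5 and 32.5 CPM in Sca-1+ MSCs. Adamtsl5 was at 0.946, 3.66 and 2.28 CPM in Itga8- Alcam+ BLCs and 6.53, 2.54 and 5.43 CPM in Itga8+ MSCs. Against Sca-1+ MSCs, Itga8+ MSCs had a log2 fold change of -3.199 ± 0.52 SE, adjusted p = 0.0019 and Itga8- Alcam+ BLCs had a log2 fold change of -4.27 ± 0.55 SE, adjusted p = 3.2e-04. Adamtsl3 measured 141, 101 and 134 CPM in CD51+CD140a+ MSCs and 70.7, 73.3 and 60.01 CPM in Sca-1+ MSCs. Adamtsl3 was at 1.29, 3.57 and 1.199 CPM in Itga8- Alcam+ BLCs and 12.3, 7.42 and 63.8 CPM in Itga8+ MSCs. It was the Adamtsl gene called between the Alcam+ populations, with all Itga8+ libraries above all Itga8- libraries (log2 fold change 3.77 ± 0.74 SE, adjusted p = 0.018, or 2.28 without Itga8+ replicate 3). Itga8- Alcam+ BLCs were lower than Sca-1+ MSCs (log2 fold change -5.06 ± 0.79 SE, adjusted p = 0.001) and than CD51+CD140a+ MSCs (log2 fold change -5.94 ± 0.82 SE, adjusted p = 2.4e-04). Adamtsl1 was lower in Itga8- Alcam+ BLCs than in Sca-1+ MSCs (log2 fold change -2.48 ± 0.66 SE, adjusted p = 0.02), with means of 1.98 ± 1.797 CPM and 11.1 ± 2.401 CPM. Adamtsl2, which binds latent TGF-β binding protein and was singled out after its values were seen, was highest in Itga8- Alcam+ BLCs at 2.44, 10.2 and 4.97 CPM and had no read in any library of CD51+CD140a+ MSCs, at least 60.9-fold lower, or 38.4-fold without Itga8- replicate 2.

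All 4 TIMP genes differed among the populations, as did 47.5% of all genes tested. Timp1 (ENSMUSG00000001131, chromosome X, 20870166 to 20874735), a secreted inhibitor that is induced by cytokines and injury, measured 9.53, 9.34 and 11.7 CPM in CD51+CD140a+ MSCs and 44.3, 80.2 and 60.4 CPM in Sca-1+ MSCs. Timp1 was at 239.6, 145 and 713 CPM in Itga8- Alcam+ BLCs and 225, 916 and 368 CPM in Itga8+ MSCs. Both Alcam+ populations overlapped widely and lay above Sca-1+ MSCs, and every library of CD51+CD140a+ MSCs was below all others. The difference from CD51+CD140a+ MSCs was a log2 fold change of 5.63 ± 0.71 SE, adjusted p = 1.3e-04 for Itga8+ MSCs and log2 fold change 5.17 ± 0.69 SE, adjusted p = 2.0e-04 for Itga8- Alcam+ BLCs. It was a log2 fold change of 2.598 ± 0.62 SE, adjusted p = 0.011 for Sca-1+ MSCs, and Itga8+ MSCs were above Sca-1+ MSCs (log2 fold change 3.03 ± 0.63 SE, adjusted p = 0.0075). Replicate 2 of Itga8+ MSCs had the highest Timp1 level of the 12 libraries and the lowest Mmp2 level of the 9 endosteal libraries. That library and replicate 3 of Itga8- Alcam+ BLCs, the highest for Timp1 in their populations, also had the highest mitochondrial shares. The part of that share in the Timp1 values was not tested.

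Timp2 (ENSMUSG00000017466, chromosome 11, 118301069 to 118355740), the inhibitor that also takes part in MMP-2 activation, measured 775, 727 and 1002 CPM in CD51+CD140a+ MSCs and 4641, 4872 and 4617 CPM in Sca-1+ MSCs. Timp2 was at 529.9, 860.4 and 559 CPM in Itga8- Alcam+ BLCs and 1314, 1080.0 and 2597 CPM in Itga8+ MSCs. Sca-1+ MSCs held the 3 highest libraries, and the remaining ranges were ordered from Itga8+ MSCs through CD51+CD140a+ MSCs to Itga8- Alcam+ BLCs, with overlap of the last 2. Sca-1+ MSCs were above Itga8+ MSCs (log2 fold change -1.502 ± 0.35 SE, adjusted p = 0.013, given for Itga8+ MSCs minus Sca-1+ MSCs). They were likewise above Itga8- Alcam+ BLCs (log2 fold change -2.86 ± 0.36 SE, adjusted p = 2.9e-04, in the same sense) and above CD51+CD140a+ MSCs (log2 fold change 2.496 ± 0.36 SE, adjusted p = 3.9e-04). Timp3 (ENSMUSG00000020044, chromosome 10, 86300372 to 86349506), the matrix-bound inhibitor that blocks ADAMTS aggrecanases and ADAM17 as well as MMPs, measured 146, 163 and 168 CPM in CD51+CD140a+ MSCs and 1723, 1962 and 2194 CPM in Sca-1+ MSCs. Timp3 was at 285, 386 and 204 CPM in Itga8- Alcam+ BLCs and 266, 163 and 481 CPM in Itga8+ MSCs. Sca-1+ MSCs were again the highest, with a log2 fold change of -2.69 ± 0.39 SE, adjusted p = 9.2e-04 for Itga8+ MSCs against them and log2 fold change -2.75 ± 0.39 SE, adjusted p = 5.9e-04 for Itga8- Alcam+ BLCs against them. Between Sca-1+ and CD51+CD140a+ MSCs there was a log2 fold change of 3.62 ± 0.41 SE, adjusted p = 6.5e-05. Of the exon bases of Timp3, 21.3% overlap Syn3 on the opposite strand, a gene known from neurons. Timp4 (ENSMUSG00000030317, chromosome 6, 115241892 to 115252205), the family member with the most restricted tissue distribution, measured 99.2, 106 and 79.9 CPM in CD51+CD140a+ MSCs and 2.93, 0 and 0 CPM in Sca-1+ MSCs. Timp4 was at 24.9, 13.5 and 18.8 CPM in Itga8- Alcam+ BLCs and 4.699, 10.96 and 5.31 CPM in Itga8+ MSCs. Every library of CD51+CD140a+ MSCs was above all others, and in Sca-1+ MSCs only replicate 1 had a read. The Timp4 difference was a log2 fold change of -3.76 ± 1.11 SE, adjusted p = 0.024 for Itga8+ against CD51+CD140a+ MSCs and log2 fold change -6.62 ± 1.29 SE, adjusted p = 0.0032 for Sca-1+ against CD51+CD140a+ MSCs. Without Sca-1+ replicate 1, Timp4 had no read in Sca-1+ MSCs and was at least 622-fold lower there.

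**Figure D4:**
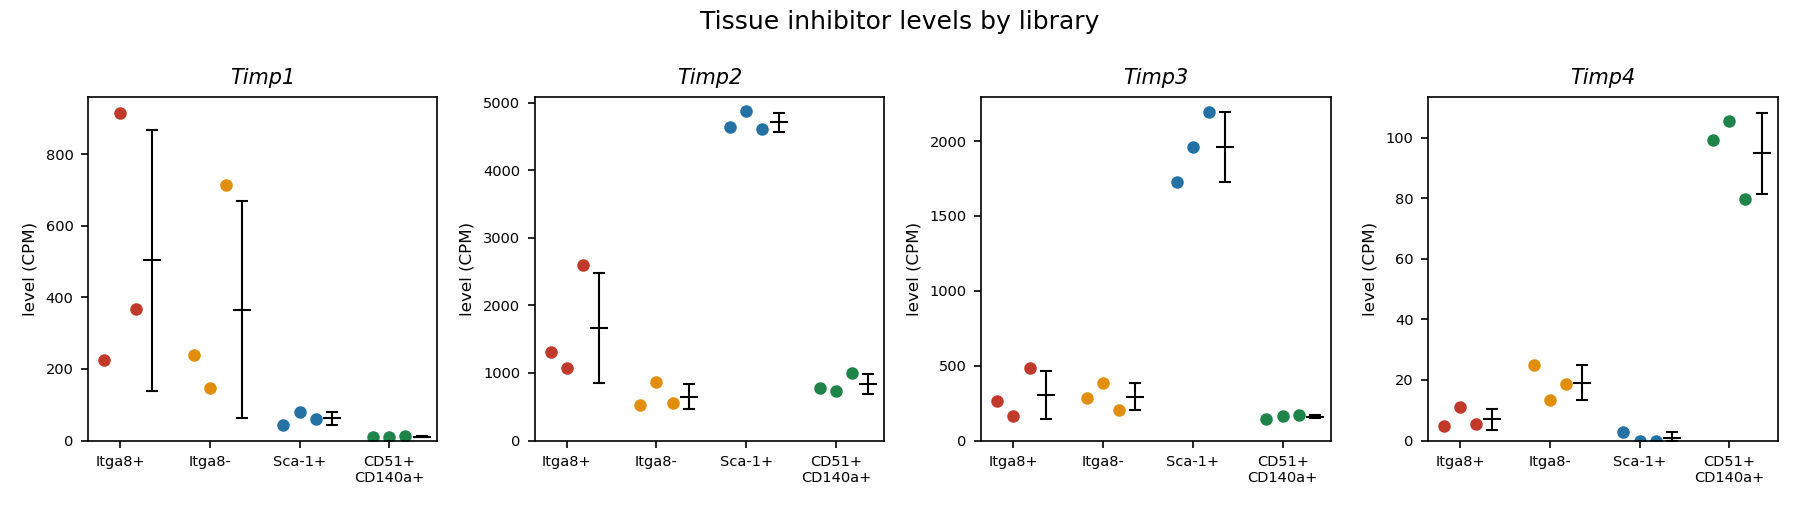
Level in CPM (vertical axis, from 0) of the 4 Timp genes in the 4 populations (horizontal axis). Coloured points are single libraries, and the black mark with its bar is the mean ± SD of 3 libraries. Timp1 is highest in the Alcam+ populations, Timp2 and Timp3 are highest in Sca-1+ MSCs, and Timp4 is highest in CD51+CD140a+ MSCs.

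The make-up of the TIMP pool differed when compared per length. Timp1 made up 51.5% ± 22.6 of the summed Timp TPM in Itga8+ MSCs but 4.39% ± 0.0820 in CD51+CD140a+ MSCs. Its share was 60.2% ± 22.3 in Itga8- Alcam+ BLCs but 4.54% ± 1.14 in Sca-1+ MSCs. Timp2 made up 81.7% ± 2.55, 79.6% ± 2.12, 32.04% ± 18.1 and 44.4% ± 20.5 from CD51+CD140a+ MSCs over Sca-1+ MSCs and Itga8- Alcam+ BLCs to Itga8+ MSCs. The inhibitor pool was mostly Timp2 in Sca-1+ and CD51+CD140a+ MSCs and was split between Timp1 and Timp2 in the Alcam+ populations. Replicates varied here, since Timp1 ranged from 37.7% to 82.4% of the pool among the libraries of Itga8- Alcam+ BLCs.

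Summed over each family, transcripts for proteases and inhibitors were balanced differently, as a description without a test. The Adamts genes together measured 3035, 2519 and 3439 TPM in CD51+CD140a+ MSCs, 868, 945 and 708 TPM in Sca-1+ MSCs, 309.5, 906 and 187 TPM in Itga8- Alcam+ BLCs and 173, 37.99 and 397 TPM in Itga8+ MSCs. The Mmp genes together measured 1734, 1287 and 1586 TPM, 3457, 3592 and 3015 TPM, 2142, 2925 and 2041 TPM and 3125, 1262 and 4963 TPM in the same order. Adamts transcripts thus exceeded Mmp transcripts in the 3 libraries of CD51+CD140a+ MSCs and in none of the 9 endosteal libraries. The ratio of the Timp sum to the Mmp sum was 0.612, 0.707 and 0.741 in CD51+CD140a+ MSCs, 1.596, 1.64 and 1.84 in Sca-1+ MSCs, 0.693, 0.488 and 1.08 in Itga8- Alcam+ BLCs and 0.769, 2.62 and 0.860 in Itga8+ MSCs. All libraries of Sca-1+ MSCs were above 1 and all libraries of CD51+CD140a+ MSCs below it, whereas Itga8+ MSCs were below 1 in replicates 1 and 3 and above it in replicate 2, the library that stood apart, and Itga8- Alcam+ BLCs were above 1 in replicate 3 alone.

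**Figure D5:**
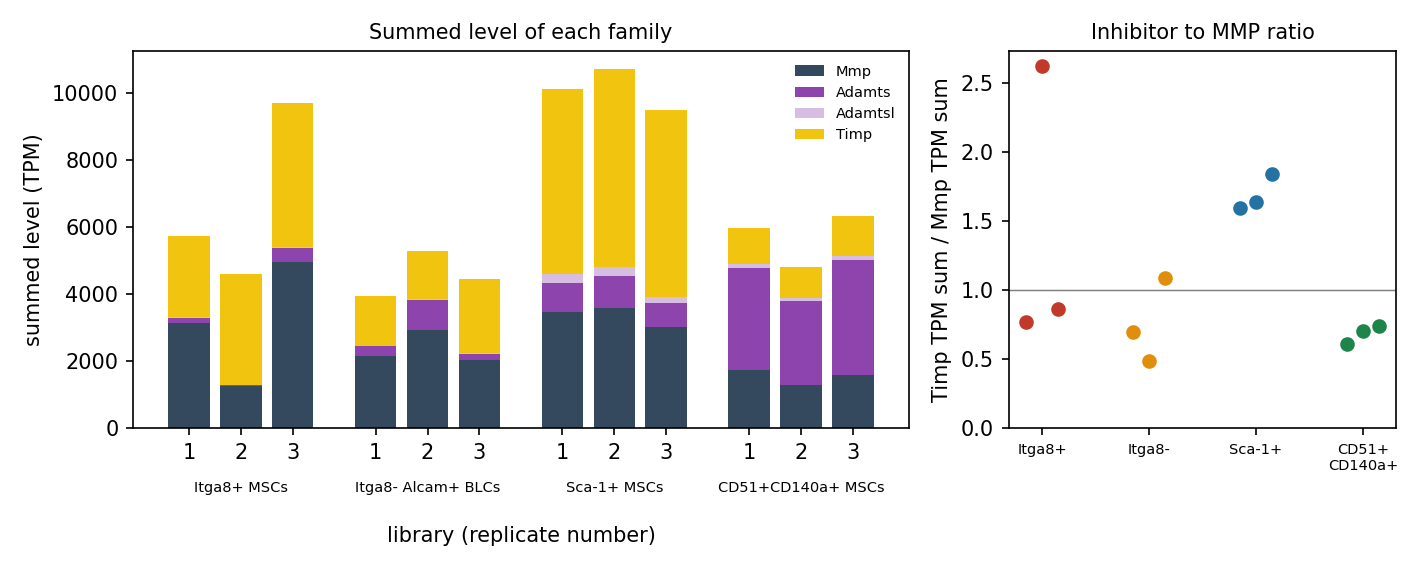
Left, summed TPM of the Mmp, Adamts, Adamtsl and Timp genes (stacked bars from 0) in each of 12 libraries, grouped by population. Right, ratio of the Timp sum to the Mmp sum in each library (points), with a line at 1. Adamts genes make up the largest part of the bar in CD51+CD140a+ MSCs, Timp genes the largest part in Sca-1+ MSCs, and the ratio of Itga8+ replicate 2 lies far above that of replicates 1 and 3.

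The comparison of Itga8+ MSCs with Itga8- Alcam+ BLCs asks what Itga8 separates within the Alcam+ gate, and it gave few calls. Adamtsl3 and Timp2 were called higher in Itga8+ MSCs, and Mmp13, Mmp16, Mmp23, Adamts2, Adamts5 and Adamts14 lower. That is 2 higher and 6 lower of 46, beside 1.66% and 2.16% of all genes, with a median log2 fold change of -0.16 over the members (or -0.21 with members at the floor set to their bound) and 0.084 over all genes. For each of the 8 genes the libraries of both populations did not overlap. In an edgeR fit of these 6 libraries alone, 1 member, Mmp13, was called. At an unadjusted p under 0.05 that fit had 2 members higher and 10 lower, and DESeq2 on all 12 libraries called 2 higher and 7 lower. Adamts14 (log2 fold change -4.07 ± 0.85 SE, adjusted p = 0.024) was no longer called without Itga8+ replicate 1 (-3.98), and Adamts2 (log2 fold change -2.501 ± 0.55 SE, adjusted p = 0.034) was not without that library (-2.52) or without Itga8- replicate 2 (-1.92).

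Timp2 (log2 fold change 1.36 ± 0.35 SE, adjusted p = 0.067) and Adamts5 (log2 fold change -1.42 ± 0.37 SE, adjusted p = 0.072) were nearest to the threshold in this comparison. Their values ranged from 0.88 to 1.63 and from -1.68 to -1.18 as each library was left out. The Timp2 call was lost without Itga8+ replicate 3, Itga8- replicates 1 or 3, any Sca-1+ library or CD51+CD140a+ replicate 1, and the Adamts5 call without Itga8+ replicates 2 or 3, Itga8- replicates 1 or 3, any Sca-1+ library or CD51+CD140a+ replicate 1. Without Itga8+ replicate 2, the library that stood apart, 4 members in place of 2 were called higher. The osteoblast sums of both populations, given with Mmp13, differed as well, and so did 5 tendon markers, whose sum was 315 to 599.8 CPM in Itga8- Alcam+ BLCs and 3793 to 11085 CPM in Itga8+ MSCs. Their part in the 8 differences was not tested.

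The 16 members that stayed under 10 CPM in every population mean were Mmp10, Mmp12, Mmp15, Mmp24, Mmp25, Mmp27, Mmp28, Adamts7, Adamts8, Adamts13, Adamts16, Adamts17, Adamts18, Adamts19, Adamts20 and Adamtsl2. Their highest population means ran from 0.518 CPM for Adamts13 to 9.301 CPM for Adamts17. Adamts7, Adamts8, Adamts18, Adamts20, Mmp15, Mmp24 and Mmp28 were among the 10 members that did not pass the test among the 4 populations. Adamts17 was at 5.69, 3.43 and 15.5 CPM in Itga8+ MSCs and 3.29, 15.6 and 9.05 CPM in Itga8- Alcam+ BLCs, and Itga8- Alcam+ BLCs were above Sca-1+ MSCs (log2 fold change 3.45 ± 0.94 SE, adjusted p = 0.023). Mmp25, a membrane-type MMP gene known from leukocytes, had no read in any library of CD51+CD140a+ MSCs and means of 0.820 ± 0.411 CPM, 0.959 ± 0.952 CPM and 0.697 ± 0.755 CPM in the endosteal populations.

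Genes that activate, inhibit or supply the members were counted from 4 lists that hold no member. Against CD51+CD140a+ MSCs, 4 of 10 genes for pro-MMP activation and the plasminogen system were higher in each endosteal population, where 21.2%, 20.4% and 11.2% of all genes were higher in Itga8+ MSCs, Itga8- Alcam+ BLCs and Sca-1+ MSCs. Called lower were 1 in Itga8+ MSCs, 1 in Itga8- Alcam+ BLCs and 3 in Sca-1+ MSCs, beside 14.3%, 14.9% and 9.3% of all genes. The median log2 fold changes were 0.29, 0.43 and 0.37, beside 0.18, 0.091 and -0.0025 over all genes. Against Sca-1+ MSCs, higher and lower were 2 and 2 in Itga8+ MSCs (beside 12.9% and 8.89% of all genes) and 3 and 3 in Itga8- Alcam+ BLCs (beside 14.5% and 11.9% of all genes), and between the Alcam+ populations none was called by edgeR, with 1 higher and 2 lower in Itga8+ MSCs at an unadjusted p under 0.05 and 1 and 2 by DESeq2. Plat, the tissue plasminogen activator gene, measured 252 ± 77.8 CPM, 112 ± 42.4 CPM and 285 ± 21.8 CPM in the endosteal populations and 2.76 ± 1.001 CPM in CD51+CD140a+ MSCs (log2 fold change 6.69 ± 0.46 SE, adjusted p = 2.4e-06 for Sca-1+ against CD51+CD140a+ MSCs). Plaur, the urokinase receptor gene, measured 6.06 ± 1.93 CPM in CD51+CD140a+ MSCs and 354 ± 142 CPM in Itga8- Alcam+ BLCs (log2 fold change 5.87 ± 0.50 SE, adjusted p = 7.9e-06 for Itga8- Alcam+ BLCs against CD51+CD140a+ MSCs). The proprotein convertase gene Pcsk6 likewise differed in the last comparison (log2 fold change 5.28 ± 0.84 SE, adjusted p = 6.8e-04). Plau, which encodes urokinase, measured 0.0203 ± 0.0177 CPM in CD51+CD140a+ MSCs and 11.9 ± 3.84 CPM in Sca-1+ MSCs. Serpine2, which encodes protease nexin-1, an inhibitor of urokinase and thrombin, went the other way and was singled out after its values were seen. It measured 8175 ± 1643 CPM in CD51+CD140a+ MSCs, 1939 ± 175 CPM in Sca-1+ MSCs, 455 ± 99.04 CPM in Itga8- Alcam+ BLCs and 369 ± 114 CPM in Itga8+ MSCs (log2 fold change -4.47 ± 0.34 SE, adjusted p = 3.9e-06 for Itga8+ against CD51+CD140a+ MSCs).

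A list of 6 genes was taken as other protease inhibitors (Reck, A2m, Tfpi2, Spock1, Spock2 and Spock3), and inhibition by their products was not measured here. Of these, 4 were higher and 0 lower in Itga8- Alcam+ BLCs than in Sca-1+ MSCs by edgeR. The numbers were 4 and 0 at an unadjusted p under 0.05 and 3 and 0 by DESeq2, which gave no adjusted p for Tfpi2. Of all genes, 14.5% were higher and 11.9% lower, and the median log2 fold change was 3.11 over the list and 0.12 over all genes. In Itga8+ MSCs, 3 were higher and 0 lower than in Sca-1+ MSCs (beside 12.9% and 8.89% of all genes), with 0 lower at an unadjusted p under 0.05 and 0 by DESeq2. Higher and lower relative to CD51+CD140a+ MSCs were 3 and 2 in Itga8+ MSCs (beside 21.2% and 14.3% of all genes), 4 and 1 in Itga8- Alcam+ BLCs (beside 20.4% and 14.9% of all genes) and 2 and 1 in Sca-1+ MSCs (beside 11.2% and 9.3% of all genes). Between the Alcam+ populations, 1 was higher and 1 lower in Itga8+ MSCs (beside 1.66% and 2.16% of all genes). Spock3, a testican gene, measured 37.6 ± 16.8 CPM in Itga8+ MSCs and had no read in CD51+CD140a+ MSCs, at least 389.6-fold lower. A2m, the gene of the broad protease trap alpha-2-macroglobulin, ran the other way. It measured 323 ± 22.6 CPM in CD51+CD140a+ MSCs and 2.76 ± 2.37 CPM in Sca-1+ MSCs (log2 fold change -6.87 ± 1.09 SE, adjusted p = 8.2e-04 for Sca-1+ against CD51+CD140a+ MSCs). Tfpi2, a Kunitz-type serine protease inhibitor gene, measured 103 ± 118 CPM in Itga8- Alcam+ BLCs and 4.42 ± 1.69 CPM in Itga8+ MSCs (log2 fold change -4.54 ± 0.73 SE, adjusted p = 0.0053). Replicate 3 of Itga8- Alcam+ BLCs held 239.5 CPM of Tfpi2, against 32.96 and 36.97 CPM in the other libraries of its population, and without it the log2 fold change was -2.98 and the call held. Of 11 ADAM and tolloid protease genes, 6 were lower and 1 higher in Itga8- Alcam+ BLCs than in Sca-1+ MSCs, beside 11.9% and 14.5% of all genes (median log2 fold change -1.32, beside 0.12). Against CD51+CD140a+ MSCs, Itga8+ MSCs had 3 lower and 1 higher, beside 14.3% and 21.2% of all genes (median -0.85, beside 0.18). In Itga8+ MSCs, 7 of the 11 were lower and 0 higher than in Sca-1+ MSCs by edgeR (median -1.36, with 8.89% and 12.9% of all genes), with 0 higher at an unadjusted p under 0.05 and 0 by DESeq2. Higher and lower were 2 and 5 in Itga8- Alcam+ BLCs (beside 20.4% and 14.9% of all genes) and 1 and 1 in Sca-1+ MSCs (beside 11.2% and 9.3% of all genes), both relative to CD51+CD140a+ MSCs, with a median of 0.58 for Sca-1+ MSCs. Between the Alcam+ populations, 0 were higher in Itga8+ MSCs by edgeR (1 at an unadjusted p under 0.05, 1 by DESeq2) and 1 lower (beside 1.66% and 2.16% of all genes). Adam12, a membrane-anchored protease gene of mesenchymal cells, measured 11.02 ± 10.1 CPM in Itga8+ MSCs and 114 ± 16.9 CPM in CD51+CD140a+ MSCs (log2 fold change -3.37 ± 0.76 SE, adjusted p = 0.0063). The sheddase gene Adam9 measured 35.6 ± 16.3 CPM in Itga8- Alcam+ BLCs and 256 ± 18.1 CPM in Sca-1+ MSCs (log2 fold change -2.85 ± 0.51 SE, adjusted p = 0.0024).

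Of 9 substrate genes tested, 7 were higher and 0 lower in Sca-1+ MSCs than in CD51+CD140a+ MSCs by edgeR, with 8 and 0 at an unadjusted p under 0.05 and 8 and 0 by DESeq2. Of all genes, 11.2% were higher and 9.3% lower, and the median log2 fold change was 4.10 over the list and -0.0025 over all genes. Against the same population, 7 were higher and 0 lower in Itga8- Alcam+ BLCs by edgeR, with the same numbers at an unadjusted p under 0.05 and by DESeq2 (beside 20.4% and 14.9% of all genes), and 5 were higher and 0 lower in Itga8+ MSCs, with 1 lower at an unadjusted p under 0.05 and 1 by DESeq2 (beside 21.2% and 14.3%). Against Sca-1+ MSCs, 4 were higher and 3 lower in Itga8- Alcam+ BLCs (beside 14.5% and 11.9%), and 2 and 2 in Itga8+ MSCs (beside 12.9% and 8.89%). Between the Alcam+ populations, Itga8+ MSCs had 0 higher by edgeR, at an unadjusted p under 0.05 and by DESeq2, and 3 lower (beside 1.66% and 2.16%). Fn1, the fibronectin gene, measured 45.4 ± 20.6 CPM in CD51+CD140a+ MSCs and 16640.1 ± 3995 CPM in Sca-1+ MSCs (log2 fold change 8.52 ± 1.25 SE, adjusted p = 4.6e-04). Comp, the cartilage oligomeric matrix protein gene, measured 73.96 ± 63.1 CPM and 7983 ± 472 CPM in the same populations (log2 fold change 6.75 ± 0.62 SE, adjusted p = 1.4e-05). The 3 libraries of CD51+CD140a+ MSCs thus held the highest Adamts1, Adamts2 and Mmp13 levels beside the low Fn1 and Comp levels. The tendon marker sum differed in the same direction, at 23.6 to 37.04 CPM in CD51+CD140a+ MSCs and 2043 to 2975 CPM in Sca-1+ MSCs, and its part in the Fn1 and Comp values was not tested.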

How the data were processed

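RNA of 12 libraries, 3 for each of 4 populations, had been amplified with SMART-Seq v4 and sequenced on an Illumina NextSeq system. The deposited files held raw counts of reads per Ensembl gene, which the authors made on mm10. The submitters' processing notes named FastQC 0.11.7, Trimmomatic 0.38, HISAT2 2.1.0, SAMtools 1.9 and featureCounts 1.6.3, whereas the study's methods name TopHat and Bowtie2. The annotation release, the strand setting and the treatment of reads with several matches were not given in the sources used here. Gene models, lengths for TPM and overlaps were taken from GENCODE M21, and promoters from RefSeq (GRCm38.p6).

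Libraries were grouped by the labels, which give no batch. Counts of 18648 genes that reached 0.5 CPM in any library were fitted with edgeR 4.0.16 (R 4.3.3, TMM, quasi-likelihood F-test, two-sided, Benjamini-Hochberg adjustment over all genes). A call required an adjusted p under 0.1 and a fold change above 2. Depth ranged from 17580677 to 31332475 counts. Reads carried no molecular identifiers, so Poisson intervals and the floor of 3 counts cover counting error only. Alternatives were DESeq2 1.42.0, limma-trend (limma 3.58.1), other scalings, filters and thresholds, a replicate block, fits of only the populations compared, and leaving out each library. Scripts were tested on simulated data. Members called in any comparison with a mean of at least 10 CPM, and all Timp genes, are named with values, as are at most 4 called genes of each pathway list by size of fold change. The members, lists and thresholds were chosen with earlier results of these data known.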

Additional observations from a re-analysis of the deposited data

How the results depend on the processing

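Of 133 called comparisons of members, 95 kept their call and direction under every alternative that gave them a value, of which 2 had no value under at least 1 alternative. So did all 16 of the named pathway genes, which were picked by size of fold change, and 0 of either changed direction. The edgeR fit of only Itga8+ MSCs and Itga8- Alcam+ BLCs called 0 members higher (2 at an unadjusted p under 0.05, and 2 by DESeq2 on all 12 libraries) and 1 lower, and the fit of only Itga8+ and CD51+CD140a+ MSCs called 9 higher. An adjusted p under 0.05 left 1 member higher in Itga8+ MSCs than in Itga8- Alcam+ BLCs. These fits hold fewer libraries or use a stricter threshold by construction. Leaving out each library gave 1 to 4 members higher in Itga8+ MSCs than in Itga8- Alcam+ BLCs, 9 to 14 higher than in CD51+CD140a+ MSCs, 5 to 8 higher than in Sca-1+ MSCs, and 3 to 10 lower in Sca-1+ than in CD51+CD140a+ MSCs, and the cause was not tested. Scaling by library totals alone moved the all-gene median log2 fold change to 0.34 for Itga8+ MSCs against Itga8- Alcam+ BLCs, -0.24 for Itga8- Alcam+ BLCs against CD51+CD140a+ MSCs and -0.15 for Sca-1+ against CD51+CD140a+ MSCs, and 4 calls were lost. Limma-trend lost 5 calls and counting every gene with at least 1 count lost 1. DESeq2 gave no adjusted p for Tfpi2. A filter of at least 10 counts in 3 libraries left 6 comparisons of Adamts13 and Adamts16 without a value.

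Whether equal replicate numbers pair the libraries was not stated. Of 18 same-numbered pairs, 5 had a correlation of their deviations above 0.1 (range -0.74 to 0.34). Differently numbered pairs were not compared, so these correlations cannot decide whether the libraries were paired. With the replicate number as a block, 16 calls were lost, and Itga8+ MSCs had 1 member higher and 5 lower than Itga8- Alcam+ BLCs. They had 11 higher and 17 lower than CD51+CD140a+ MSCs, and 6 higher and 14 lower than Sca-1+ MSCs. Itga8- Alcam+ BLCs had 10 higher and 13 lower than CD51+CD140a+ MSCs, and 8 higher and 13 lower than Sca-1+ MSCs. Sca-1+ MSCs had 13 higher and 7 lower than CD51+CD140a+ MSCs, and 35 members differed among the populations.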
